A study of Mus musculus with 12 samples.

Results

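Cell adhesion genes were examined for CpG sites whose DNA methylation differed between offspring of mothers given a phthalate and offspring of mothers given its vehicle. The genes were the 161 protein-coding RefSeq genes (GRCm38) of 21900 whose symbols belong to the cadherins, protocadherins, Celsr, Fat and Dchs genes, catenins, nectins, Cadm genes, contactins, contactin-associated proteins and integrins. They were picked by symbol, a choice made with earlier results of these data known. Of these genes, 6 are only named for binding a catenin or an integrin (or for resemblance to a catenin). Sites in a gene's span or up to 5 kb from it were counted for that gene. By this rule 34 of the 2798 sites in the authors' deposited table lay at 38 of these genes (23.6%, against 6.51% of all protein-coding genes). Of the sites, 15 were hypermethylated and 19 hypomethylated. The clustered protocadherins accounted for 17 of the 38 genes and 7 of the 34 sites, because their spans overlap and share sites.

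The exposed offspring were first-generation (F1) female C57BL/6 mice of mothers (F0) that had received di(2-ethylhexyl) phthalate (DEHP), a plasticiser, at 37 µg per kg per day over 10 days (6 libraries). The controls were F1 females of corn oil mothers (6 libraries). The fathers were untreated, and the labels of all 12 libraries name immunisation with OVA and splenic CD11c dendritic cells. The extraction note also names spleen, and the labels do not say how many mothers, litters or pooled animals stand behind the libraries. The deposited tables hold 1 difference and 1 q-value per site for the groups as wholes. Levels, coverage and spread per library were not analysed here, so no standard deviation and no test over libraries could be made, and the depth is unknown. Whether the deposited q-values take the variation between mothers into account is not known here. A positive difference is taken here to mean more methylation in offspring of DEHP mothers, a direction that the table itself does not state. The files hold no expression, so the labelled cell type could not be checked against expressed markers.

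Cadherins are calcium-dependent receptors that join neighbouring cells by binding their own kind, and catenins tie their tails to the actin cytoskeleton. Integrins are pairs of an alpha and a beta chain that bind extracellular matrix or ligands on other cells and link them to the cytoskeleton. In dendritic cells, integrin chains such as CD11b (Itgam), CD11c (Itgax) and CD103 (Itgae) mark subsets, and adhesion receptors take part in migration and in contact with T cells. DNA methylation is the addition of a methyl group to cytosine, in mammals mostly at CpG. It was measured by reduced representation bisulfite sequencing, which reads a CpG-rich part of the genome.

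Of all adhesion genes with a RefSeq promoter window, Pcdh19 was the one with a called site inside it. The window reaches from 250 bases before to 50 bases after an annotated transcription start, and 73 of the 161 genes had at least 1 such window. The Pcdh19 window lies on the minus strand at chrX:133688944-133689243 (GRCm38.p6, RefSeq). It is shown because the called CpG can be placed in it, and the capitals mark that CpG.

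Pcdh19: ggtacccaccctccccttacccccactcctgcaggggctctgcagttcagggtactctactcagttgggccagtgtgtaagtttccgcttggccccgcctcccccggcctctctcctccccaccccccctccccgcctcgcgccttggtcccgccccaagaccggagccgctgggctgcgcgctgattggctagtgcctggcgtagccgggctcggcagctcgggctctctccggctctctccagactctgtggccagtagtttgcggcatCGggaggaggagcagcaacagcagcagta

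The site in this sequence (position 133688971) lay 22 bp downstream of the annotated start. In the authors' deposited table it was hypomethylated by -25.4 percentage points. A second hypomethylated site (position 133688897, -28.9 points in the authors' deposited table) lay 74 bp away, 96 bp downstream of the start and 47 bp outside the window. Pcdh19 encodes an X-linked protocadherin known from neurons, and both positions fall within Gm26851, a long noncoding RNA gene, as well. The dinucleotide CG occurred 18 times in the Pcdh19 window, against a median of 7 over all 32851 RefSeq promoter windows, and 29.7% of all windows held at least as many. The median of the adhesion gene windows was 13. CG was present in 94.6% of all windows and CCGG, which contains a CG and reads the same on both strands, in 52.8%. The Pcdh19 window held CCGG 4 times. Called sites lay in 56 of all windows (0.170%) and in 1 of the 88 windows of adhesion genes.

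Sites at adhesion genes had a median size and a split of directions close to those of the whole list. Of the 34 sites, 44.1% were hypermethylated, against 48.4% of all 2798 called sites. Their median absolute difference was 28.03 percentage points, against 28.7 over all called sites. Most lay near the minimum of about 25 points that the deposited list had been restricted to. Thus 64.7% of the adhesion sites and 60.6% of all called sites differed by less than 30 points, and 2 adhesion sites (5.88%, against 5.43% of all) passed 40 points. These were a hypermethylated site in Cdh6 and a hypomethylated site in Ctnna3. The largest q-value of an adhesion site in the authors' deposited table was 4.30e-10, and 27 of the 34 sites had a deposited p-value of 0.

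**Figure D1:**
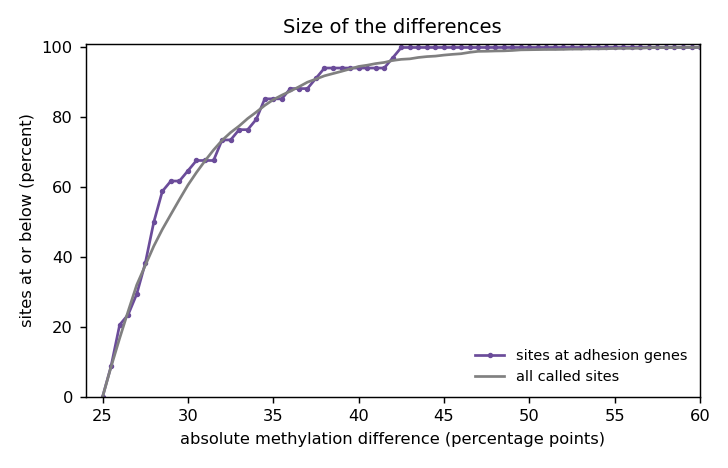
Cumulative share of sites (vertical axis, percent) at or below each absolute methylation difference (horizontal axis, percentage points) for the 34 sites at adhesion genes (purple, with points) and all 2798 called sites (grey). Both curves rise from about 25 points, and 64.7% of the adhesion sites and 60.6% of all sites lie under 30 points.

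Adhesion genes carried called sites at 38 of 161 members (23.6%), while 6.51% of all protein-coding genes did. Hypermethylated sites lay at 19 members (11.8%), against 3.48% of all protein-coding genes, and hypomethylated sites at 27 members (16.8%), against 3.77% of all. A gene counted here can owe its site to a neighbour, since overlapping spans share sites. Outside the clustered protocadherins 21 of 104 members (20.2%) carried a site. Of these, 8 had hypermethylated sites alone, 12 hypomethylated sites alone, and Ctnnd2 had both. Hypermethylated sites thus lay at 9 of the 104 members (8.65%) and hypomethylated sites at 13 (12.5%).

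Adhesion genes are long, and long genes carried called sites more often throughout the genome. The median span was 88.2 kb for the members outside the clusters and 17.1 kb for all protein-coding genes. Among genes over 200 kb, 9 of 30 members (30%) carried a site, against 21.7% of all protein-coding genes. Between 50 and 200 kb the values were 8 of 38 members (21.1%) and 10.6% of all protein-coding genes. Under 50 kb they were 4 of 36 members (11.1%) and 4.67% of all protein-coding genes. The member counts per class are small, and whether these shares differ from those of all genes was not tested. Per length of merged gene span, members outside the clusters held 0.982 called sites per Mb, against 1.38 per Mb for all protein-coding genes. A higher share of genes and a lower number of sites per Mb thus stood side by side. By class, the members held 0.576 sites per Mb over 200 kb (0.741 for all genes), 2.24 per Mb between 50 and 200 kb (1.30 for all) and 5.37 per Mb under 50 kb (2.62 for all). Which CpGs were covered in each gene is unknown, and its part in these shares was not tested.

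**Figure D2:**
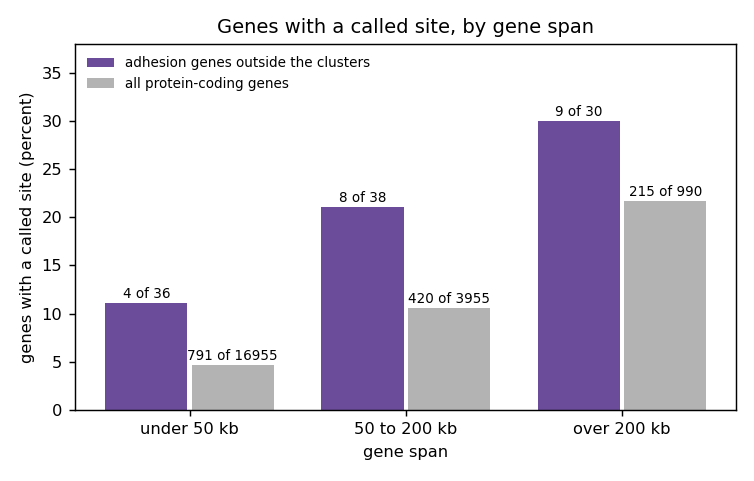
Percent of genes with a called site (vertical axis) by gene span (horizontal axis), for adhesion genes outside the clustered protocadherins (purple, left bar) and all protein-coding genes (grey, right bar), with the counts above the bars. The share rises with span in both sets, to 9 of 30 adhesion genes and 215 of 990 protein-coding genes over 200 kb.

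Cadherins named Cdh carried 7 sites at 7 of 23 genes (30.4%, against 6.51% of all protein-coding genes), each at a single site. By span the counts were 1 of 5 under 50 kb, 2 of 10 from 50 to 200 kb and 4 of 8 over 200 kb. In these classes 4.67%, 10.6% and 21.7% of protein-coding genes carried a site, shares that also apply to the families below. The family shares rest on few genes, and no test of them was made. Hypermethylated were Cdh6, Cdh2 and Cdh3, and hypomethylated were Cdh23, Cdh4, Cdh12 and Cdh26. Cdh6, a cadherin known from the developing kidney, had the largest gain of the adhesion genes at 42.1 percentage points in the authors' deposited table (chromosome 15, position 13110962), the 59th largest of 1354 gains in the whole list. That site lay deep in the gene, 65.4 kb from the nearer end of the span. Cdh2 encodes N-cadherin, which joins neurons, heart muscle and mesenchymal cells, and its site (chromosome 18, position 16807714) was hypermethylated by 27.4 points in the authors' deposited table. It lay 1532 bp inside one end of the span. The site of Cdh3, the gene of P-cadherin, lay 185 bp after the span start (chromosome 8, position 106511037). The site had a gain of 25.6 points in the authors' deposited table. It is also the called site nearest to the neighbouring gene Cdh1, which encodes E-cadherin, 92.3 kb from the span of Cdh1.

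The hypomethylated cadherin sites were close to each other in size and lay 13.7 to 187 kb inside their genes. In the authors' deposited table the differences were -28.4 points at Cdh23 (chromosome 10, position 60637731) and -28.3 points at Cdh4 (chromosome 2, position 179629234). They were -27.8 points at Cdh12 (chromosome 15, position 20499216) and -25.8 points at Cdh26 (chromosome 2, position 178473675) in the authors' deposited table. Their distances to the nearer span end were 58.8 kb, 187 kb, 50.3 kb and 13.7 kb in the same order. Cdh23 encodes one partner of the tip link of inner ear hair cells, Cdh4 encodes R-cadherin and Cdh12 a cadherin of the brain. The other partner of the tip link is encoded by Pcdh15, whose sites were hypomethylated, as were 1444 of all 2798 called sites.

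Protocadherins outside the clusters carried 4 sites, all hypomethylated, at 2 of 12 genes (16.7%, against 6.51% of all protein-coding genes). By span the counts were 0 of 5 genes under 50 kb, 1 of 3 from 50 to 200 kb and 1 of 4 over 200 kb. The sites of Pcdh19 are described above. Pcdh15 has a span of 1.55 Mb, and its sites (chromosome 10, positions 73601910 and 73678434) lay 76.5 kb apart and 506 kb and 582 kb from the nearer end of the span. The authors' deposited table gave -25.3 and -25.4 points for them, the 1363rd and 1356th largest of 1444 losses, so both were near the minimum of the list.

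**Figure D3:**
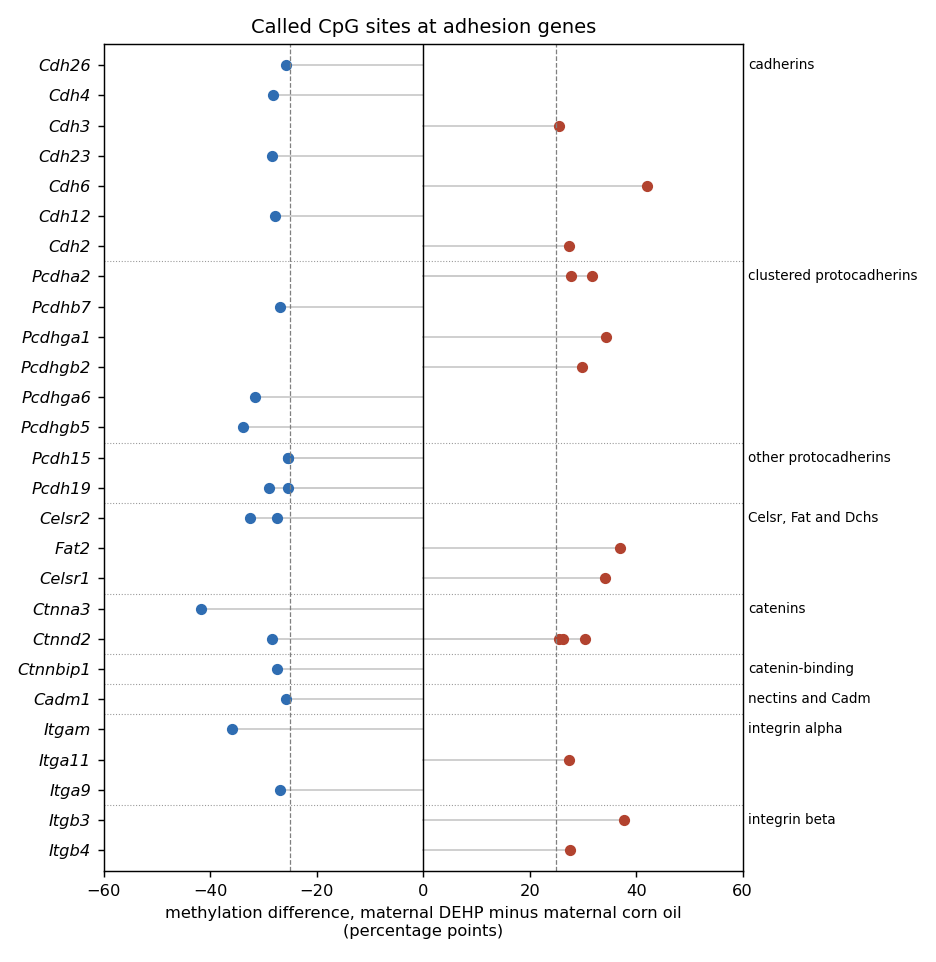
Methylation difference (horizontal axis, percentage points, maternal DEHP minus maternal corn oil) of each of the 34 called sites at adhesion genes, with genes down the vertical axis by family. Points right of 0 (red) are hypermethylated, points left of it (blue) hypomethylated, and dashed lines mark 25 points. Each site of the clustered protocadherins is drawn once, at the gene whose span start precedes it most closely, and the extremes are Cdh6 (42.1 points) and Ctnna3 (-41.7 points).

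The clustered protocadherins hold many similar genes in a row on chromosome 18, whose products form combinations that give neurons an identity of their own at the surface. In the alpha and gamma clusters each gene starts with a first exon of its own and shares its last exons with the others. Accordingly the 14 alpha and 21 gamma genes had separate span starts in the gene table, with spans that run on over those of their neighbours, while the 22 beta genes had short separate spans (median 3.42 kb). The whole region runs from 36930285 to 37841873 (0.912 Mb) and held 7 called sites, or 7.68 per Mb with the sequence between the genes included. Per Mb of merged gene span the clusters held 13.6 sites, against 1.38 in all protein-coding genes. It held 7 of the 66 called sites on chromosome 18. How many CpGs could be read per Mb is unknown, and its part in this number was not tested.

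Directions in the clusters changed along the chromosome. In the alpha cluster, 2 sites lay 23 bp apart (positions 36941543 and 36941566), both hypermethylated, and the authors' deposited table gave 27.7 and 31.6 points. Their positions were 2338 and 2361 bp after the span start of Pcdha2 and over 4.5 kb before that of Pcdha3, so that 2 member spans held them. In the beta cluster the authors' deposited table had 1 site, at 37343513 in Pcdhb7, hypomethylated by -26.8 points. In the gamma cluster the first 2 sites were hypermethylated. One lay 263 bp after the span start of Pcdhga1 (position 37662038, 34.3 points in the authors' deposited table), the other 173 bp after that of Pcdhgb2 (position 37690032, 29.8 points). The next 2 were hypomethylated in the authors' deposited table, at 37710163 (-31.7 points), 3062 bp after the span start of Pcdhga6, and at 37732893 (-33.9 points), 1922 bp after that of Pcdhgb5. The last of these lay in the spans of 12 gamma genes. Of the 17 clustered genes that the rule links to a site, 3 were thus linked to hypermethylated sites alone, 7 to hypomethylated sites alone and 7 to both. The sites of the beta and gamma clusters also lie in the spans of the predicted protein-coding genes Gm37013, Gm38666 and Gm38667.

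**Figure D4:**
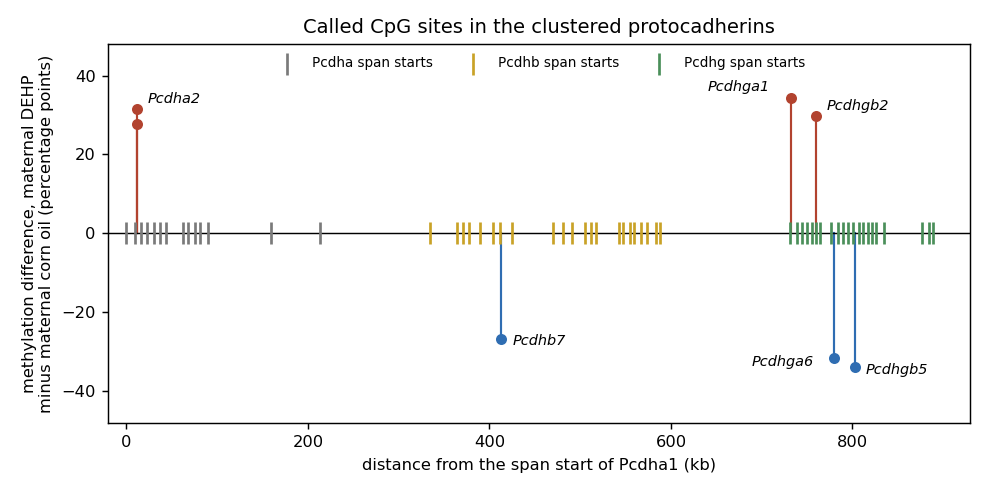
Methylation difference (vertical axis, percentage points, maternal DEHP minus maternal corn oil) of the 7 called sites in the clustered protocadherins by distance from the span start of Pcdha1 (horizontal axis, kb). Ticks on the zero line mark the span starts of the alpha, beta and gamma genes. The sites at Pcdha2, Pcdhga1 and Pcdhgb2 lie above 0, and those at Pcdhb7, Pcdhga6 and Pcdhgb5 lie below it.

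Among the Celsr, Fat and Dchs genes, which encode very large cadherins, 3 of 9 carried 4 sites (33.3% of genes, against 6.51% of all protein-coding genes). By span the counts were 1 of 3 genes under 50 kb, 2 of 4 from 50 to 200 kb and 0 of 2 over 200 kb. The planar cell polarity genes Celsr1 and Celsr2 went in opposite directions. At Celsr2 (chromosome 3, positions 108397214 and 108397347) both sites were hypomethylated, by -32.5 and -27.4 points in the authors' deposited table. At Celsr1 (chromosome 15, position 86032143) the authors' deposited table had a gain of 34.2 points, 2080 bp inside one end of the span. Fat2, known from cerebellar granule cells and migrating epithelia, had a gain of 37.1 points in the authors' deposited table (chromosome 11, position 55314357). It was the 139th largest gain of the whole list.

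Catenins carried 5 sites at 2 of 6 genes, both spanning over 200 kb, a class in which 21.7% of protein-coding genes carried a site. Ctnna3, the gene of alpha-T-catenin, which is known from heart muscle junctions, had the largest loss of the adhesion genes. The authors' deposited table gave -41.7 points (chromosome 10, position 64477886), the 48th largest of 1444 losses, with a q-value of 2.56e-15. The site lay 526 kb from the nearer end of a span of 1.57 Mb. Ctnnd2 encodes delta-catenin, a catenin of neurons, and was the one gene outside the clusters with sites of both directions. A group of 3 sites within 116 bp (chromosome 15, positions 30646355, 30646384 and 30646471) was hypermethylated by 25.6, 26.2 and 30.4 points in the authors' deposited table. The remaining site, 179 kb before them at 30467493, was hypomethylated by -28.4 points in the authors' deposited table. Ctnnb1, which encodes beta-catenin, carried no called site, and the nearest one lay 120 kb away. Ctnnbip1 encodes an inhibitor of the binding of beta-catenin to TCF factors, and had 1 hypomethylated site 1295 bp inside one end of its span (chromosome 4, position 149565142, -27.6 points in the authors' deposited table). None of the other 5 genes named for binding or resembling such proteins carried a site.

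Nectins and Cadm genes carried 1 site, at 1 of 8 genes (12.5%, against 6.51% of all protein-coding genes). By span the counts were 0 of 4 genes under 50 kb, 0 of 2 from 50 to 200 kb and 1 of 2 over 200 kb. The site lay in Cadm1, which encodes a homophilic adhesion molecule and marks the cross-presenting subset of conventional dendritic cells. The authors' deposited table had it hypomethylated by -25.8 points (chromosome 9, position 47558196, q-value 2.59e-12), 28.0 kb from the nearer end of a span of 332 kb. None of the 13 contactins and contactin-associated proteins, which act at contacts of axons and glia, carried a site. Of these 13 genes 10 spanned over 200 kb, a class in which 21.7% of protein-coding genes carried one.

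Integrin alpha genes carried 3 sites at 3 of 18 genes (16.7%, against 6.51% of all protein-coding genes). By span the counts were 0 of 8 genes under 50 kb, 2 of 9 from 50 to 200 kb and 1 of 1 over 200 kb. Itgam, the gene of CD11b, which pairs with the beta chain CD18 (Itgb2) on myeloid cells, was hypomethylated by -35.9 points in the authors' deposited table (chromosome 7, position 128106836). This was the 179th largest of 1444 losses and lay 11.7 kb inside the end of the Itgam span. It was also the called site nearest to Itgax, the gene of the CD11c by which the cells were named, 22.7 kb from that span. Itga9 and Itga11 encode chains of receptors for matrix ligands, with collagen as the ligand of the Itga11 product. The authors' deposited table gave Itga9 a loss of -26.9 points (chromosome 9, position 118897285) and Itga11 a gain of 27.4 points (chromosome 9, position 62767715).

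Integrin beta genes carried 2 sites at 2 of 9 genes (22.2%, against 6.51% of all protein-coding genes), both hypermethylated. By span the counts were 1 of 5 genes under 50 kb and 1 of 4 from 50 to 200 kb. Itgb3, whose product pairs with the alpha-V chain and with the platelet chain alpha-IIb, had a gain of 37.7 points in the authors' deposited table (chromosome 11, position 104658978), the 126th largest. Itgb4, whose product anchors epithelial cells in hemidesmosomes, had a gain of 27.6 points in the authors' deposited table (chromosome 11, position 116005574), 2838 bp inside one end of the span.

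**Figure D5:**
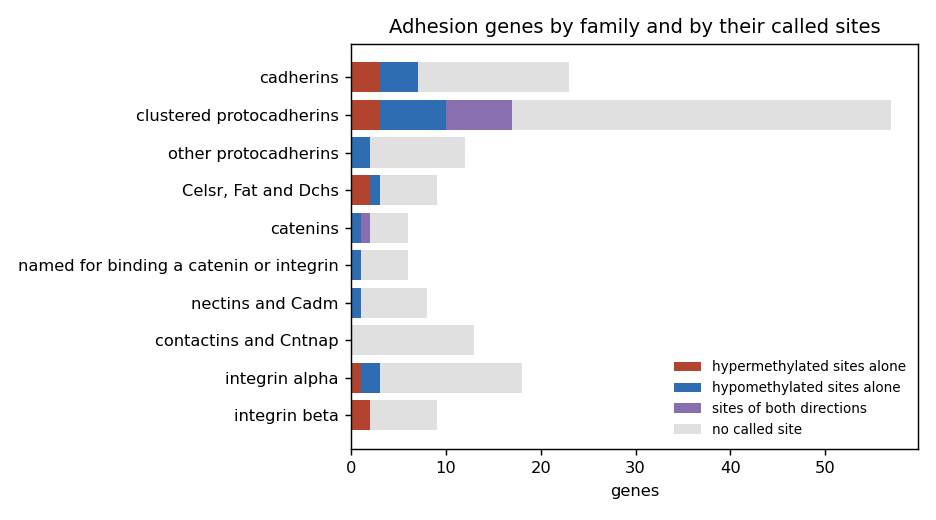
Number of adhesion genes (horizontal axis) in each family (vertical axis) with hypermethylated called sites alone (red), hypomethylated sites alone (blue), both (purple) or none (grey). The 57 clustered protocadherins share 7 sites among 17 genes, and the 13 contactins and contactin-associated proteins have none.

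Of 14 adhesion genes with a known place in dendritic cells, Itgam and Cadm1 carried a called site (14.3%, against 6.51% of all protein-coding genes), both hypomethylated. The others were Itgax, Itgae, Itgal, Itgb1, Itgb2, Itgb7, Itga4, Itgav, Itgb8, Cdh1, Ctnnb1 and Nectin2. The median span of the 14 genes was 51.9 kb. A site was carried by 4.67% of protein-coding genes under 50 kb, 10.6% of those of 50 to 200 kb and 21.7% of those over 200 kb. Itgam falls in the class of 50 to 200 kb and Cadm1 in that over 200 kb. At Itgb2 the nearest called site lay 125 kb away, at Itgae 176 kb and at Itgb8 2.43 Mb. The list contains only called sites, so an uncovered CpG and a small difference look alike at these genes.

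All 34 sites lay inside a member span, and none in the 5 kb beside one alone. Beyond 5 kb, the closest outside the clusters lay 6.87 kb from Ctnnbip1 (29.6 points in the authors' deposited table) and 8.39 kb from Cdh26 (-26.2 points). A hypomethylated site lay 17.8 kb from Cntn2 (-28.0 points in the authors' deposited table). It was followed by a pair 255 bp apart near Nectin2, at 17.97 and 18.2 kb, with opposite directions (27.9 and -31.7 points in the authors' deposited table). Within the spans, 5 sites lay within 1 kb of an end (Cdh3, both of Pcdh19, Pcdhga1 and Pcdhgb2), 15 within 5 kb, and 13 over 20 kb from either end. The gene table gives no exons, so exonic and intronic sites could not be told apart.

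Neighbouring sites of an adhesion gene within 1 kb of each other shared their direction. All 5 such pairs did, at Pcdha2 (23 bp), Ctnnd2 (29 and 87 bp), Pcdh19 (74 bp) and Celsr2 (133 bp). Farther apart, the adjacent Ctnnd2 sites at 179 kb went in opposite directions. Over all called sites 327 of 514 adjacent pairs within 1 kb shared their direction. Within 100 bp 294 of 336 did (87.5%, with 4 of 4 at adhesion genes). Between 110 and 180 bp, a range not planned beforehand, only 16 of 134 did. The Celsr2 pair lies in that last range and is 1 of those 16. With so few pairs the values describe these genes alone. Among the further adhesion genes listed below, neighbours within 1 kb went both ways. Directions were opposite at Nrxn3 (positions 89260457 and 89260493) and Ncam2 (81228583 and 81228733). They were the same at Pecam1, at Nlgn3 and at another Nrxn3 pair (89260347 and 89260457).

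A further list of 64 adhesion genes that the names above do not cover, such as junction and focal adhesion proteins, immunoglobulin-type adhesion molecules, selectins, neurexins and neuroligins, carried sites at 12 genes (18.8%, median span of the list 47.5 kb), while 6.51% of all protein-coding genes did, 4.67% of those under 50 kb, 10.6% of those of 50 to 200 kb and 21.7% of those over 200 kb. Tns2 had a hypermethylated site alone, 8 genes had hypomethylated sites alone and Nrxn3, Ncam2 and Nrxn2 had both, with 4 hypermethylated and 16 hypomethylated sites in all. Among the larger in the authors' deposited table were losses at Rap1a (-36.7 points), the gene of a small GTPase that activates integrins, and at Nrxn3 (-35.8 points). Pecam1, the gene of CD31 on endothelium and leukocytes, had 2 hypomethylated sites, the larger at -34.7 points in the authors' deposited table.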

How the data were processed

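DNA methylation was measured in 12 libraries, 6 per group. The submitters' processing notes name methylKit and build GRCm38 (mm10). The aligner, the coverage minimum and the test form were not given in the sources used here. Per the file headers, the deposited tables give for each site its position, p-value, q-value and signed methylation difference. This difference score is in percentage points in the authors' tables, and no absolute value is under 25. Both part tables together held the same 2798 sites as the whole table. The values were used as deposited.

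Sites were assigned to RefSeq gene spans (GRCm38.p6) with 5 kb on either side, using Python 3.11.15 and pandas 2.3.3. The assignment was tested on simulated intervals. Every called position in a promoter window was the C of a CG (79 of 79 window and site pairs), so positions count from 1. Merged spans were used for sites per Mb. Shares and medians are set beside those of all genes or all sites, in 3 span classes divided at 50 and 200 kb. Since fewer than 45 members carried a site, all were named or counted, with the 14 dendritic cell adhesion genes whatever their values. Members, lists and settings were chosen with earlier results of these data known. No further test was made, since it would need values per library. Alternative size limits, q-value limits, distances, merging, member choices and chromosomes are given in the closing section. Some genes of the second adhesion list are not reported here by name.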

Additional observations from a re-analysis of the deposited data

How the results depend on the processing

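The lists hold group differences alone, so read depth and the spread between libraries limit every value here in a way that cannot be measured, and no library could be left out. No paired analysis was possible because the tables carry no value per library. With the clusters included, all members held 1.21 sites per Mb of merged span, against 1.38 for all protein-coding genes. At 30 percentage points or more, 3.02% of all protein-coding genes carried a site. Of the adhesion genes, 24 members, 12 sites and 0.428 sites per Mb were left, with a median of 34.2 points. Of these members, only Cdh6, Celsr1, Celsr2, Ctnna3, Ctnnd2, Fat2, Itgam and Itgb3 lay outside the clusters. The others were clustered protocadherins, whose overlapping spans share sites. At 40 points or more, 2 members, 2 sites and 0.0714 sites per Mb were left, with a median of 41.9 points, and 0.425% of all protein-coding genes carried a site. Fewer sites enter by construction. Without the clustered protocadherins the count of members with a site was 21 in place of 38, because overlapping spans share sites. The count ran from 31 to 48 under the other settings: a q-value under 1e-10, spans alone, 20 kb around spans, sites within 1 kb merged, other choices of members, every biotype and autosomes only. At 20 kb, where the count was 48, the share of all protein-coding genes was 10.7%. Leaving out the cadherins or the integrin alpha genes was added after the data were seen. The share of hypermethylated sites lay between 40.7% and 58.3% under all settings run.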

Other observations

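Of the 15 dendritic cell markers on a list of cell type genes, Cadm1 carried a called site (6.67%, against 6.51% of all protein-coding genes). None of the 5 B cell, 6 T and NK cell, 6 macrophage and monocyte and 3 neutrophil markers did. Of 3 plasmacytoid dendritic cell markers Tcf4 carried 3 sites, at 28.2, -26.4 and -28.5 percentage points in the authors' deposited table. Most of these genes are short, with list medians of 3.87 to 22.6 kb, and 4.67% of protein-coding genes under 50 kb carried a site. Cadm1 and Tcf4 both span over 200 kb, a class in which 21.7% did. The makeup of the cells cannot be read from these counts.

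Adhesion genes of synapses were among the genes with the most called sites of the second adhesion list. In the authors' deposited table the X-linked neuroligin gene Nlgn3 held 2 hypomethylated sites (-25.2 and -26.9 points) near one end of its span. Nrxn3 held 3 hypomethylated sites and 1 hypermethylated site (31.0 points), and Ncam2 held 1 of each direction (33.4 and -26.0 points).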
